A study of Homo sapiens with 6 samples.

Results

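Antisense long non-coding RNA (lncRNA) genes were followed together with the genes they are named after in UWB1.289 cells treated with Olaparib. Members were all genes that GENCODE release 44 classes as lncRNA and whose symbol ends in -AS and a number, matched to the deposited gene counts by Ensembl identifier. The annotation holds 1816 such genes, of which 1761 were in the count table, 471 had no count in any sample and 506 had 1 to 10 counts in total. With OIP5-AS1 left out, 783 members had more than 10 counts over the 6 samples, out of 21729 genes tested. The sense partner of a member was the gene whose symbol stands before -AS, for example NUP153 for NUP153-AS1. A partner was found in the annotation for 773 members and was itself tested for 727 of them, which gave 712 distinct partners. The partner of 46 members had 10 counts or fewer, and 10 members such as HOXA-AS2 had no gene of the partner's name in the annotation.

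Natural antisense lncRNAs are transcribed from the strand opposite a neighbouring gene, so that the RNA pair can share complementary sequence. Known antisense RNAs act in several ways, among them by recruiting chromatin modifiers to the locus, by transcriptional interference, by pairing with the sense mRNA and by acting on distant genes after leaving the locus, and many have no known role. Many start from the same CpG-rich region as the sense gene, running away from it (divergent) or overlapping its first exon head to head.

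UWB1.289 is an established line from a human ovarian carcinoma that lacks functional BRCA1, a deficiency both groups carried, although the genotype label of the samples reads WT. Olaparib inhibits PARP1, an enzyme of DNA repair. Cells received 4 µM Olaparib for 24 h (3 samples) or the vehicle dimethylsulfoxide (DMSO) for 24 h (3 samples), whereas the design text of the series gives 10 µM. Polyadenylated RNA was sequenced from this 1 line, and each group held 3 replicates.

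The libraries held between 35360458 and 39640775 counts. The epithelial marker EPCAM had 26488 to 29720 counts per library and the ovarian carcinoma marker PAX8 had 10592 to 12233, while WT1, another ovarian carcinoma marker, had 0 to 2. The leukocyte gene PTPRC had 53 to 75 counts, the endothelial gene PECAM1 had 0 and the muscle gene DES had 0 to 3. Members took 0.148% to 0.152% of all counts in the Olaparib libraries and 0.157% to 0.161% in the DMSO libraries. The share of mitochondrial genes ranged from 5.68% to 6.11% with overlapping groups.

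RefSeq promoter windows, which run from 250 bases before to 50 bases after an annotated start, were matched by symbol to 586 of the 783 members and to 618 of the 757 distinct partners. Windows of 6 members that passed the test described below, and of the partners of 3 of them, are printed because these members either overlap their partner head to head (NUP153, TMEM147 and ZNF503), had the smallest p-values (TNS2-AS1 and PITPNA-AS1) or had the lowest GC content (HDAC2-AS2). Each window is given 5′ to 3′ on the strand of its gene (build GRCh38.p14). The NUP153-AS1 window is chr6:17705880-17706179 on the plus strand and the NUP153 window is chr6:17706876-17707175 on the minus strand. The TMEM147-AS1 window is chr19:35545980-35546279 on the minus strand and the TMEM147 window is chr19:35545376-35545675 on the plus strand. The ZNF503-AS2 window is chr10:75401278-75401577 on the plus strand and the ZNF503 window is chr10:75401715-75402014 on the minus strand. The remaining windows are TNS2-AS1 at chr12:53054389-53054688 on the minus strand, PITPNA-AS1 at chr17:1516669-1516968 on the plus strand and HDAC2-AS2 at chr6:113969451-113969750 on the plus strand. Capitals mark the TATA motif TATAA, the CCAAT box, the GC box GGGCGG and the ETS-type motif CCGGAAG, each searched on both strands, so that their reverse complements are capitals too.
NUP153-AS1: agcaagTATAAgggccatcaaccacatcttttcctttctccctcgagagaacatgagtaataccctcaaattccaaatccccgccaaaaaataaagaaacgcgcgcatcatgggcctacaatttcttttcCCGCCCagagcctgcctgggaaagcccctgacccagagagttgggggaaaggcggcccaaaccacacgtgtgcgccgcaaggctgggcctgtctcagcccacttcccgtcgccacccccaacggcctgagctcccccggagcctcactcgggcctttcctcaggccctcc
NUP153: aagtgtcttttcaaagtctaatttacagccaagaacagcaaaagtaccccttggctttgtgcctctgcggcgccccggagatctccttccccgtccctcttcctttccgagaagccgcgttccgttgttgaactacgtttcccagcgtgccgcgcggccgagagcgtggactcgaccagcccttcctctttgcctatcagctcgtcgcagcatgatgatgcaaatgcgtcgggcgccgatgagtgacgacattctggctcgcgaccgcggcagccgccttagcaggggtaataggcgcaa
TMEM147-AS1: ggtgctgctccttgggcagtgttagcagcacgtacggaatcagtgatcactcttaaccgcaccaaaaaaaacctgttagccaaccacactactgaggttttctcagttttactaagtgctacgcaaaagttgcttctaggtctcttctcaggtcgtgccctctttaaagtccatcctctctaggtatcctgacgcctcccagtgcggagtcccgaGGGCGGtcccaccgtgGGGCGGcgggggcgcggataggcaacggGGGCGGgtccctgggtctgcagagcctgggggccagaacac
TMEM147: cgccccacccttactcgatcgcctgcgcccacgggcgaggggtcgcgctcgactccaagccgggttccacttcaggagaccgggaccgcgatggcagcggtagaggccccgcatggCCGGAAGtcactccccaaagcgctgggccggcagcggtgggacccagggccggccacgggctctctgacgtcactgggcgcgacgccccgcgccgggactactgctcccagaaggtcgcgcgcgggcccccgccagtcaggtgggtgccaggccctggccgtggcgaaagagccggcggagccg
ZNF503-AS2: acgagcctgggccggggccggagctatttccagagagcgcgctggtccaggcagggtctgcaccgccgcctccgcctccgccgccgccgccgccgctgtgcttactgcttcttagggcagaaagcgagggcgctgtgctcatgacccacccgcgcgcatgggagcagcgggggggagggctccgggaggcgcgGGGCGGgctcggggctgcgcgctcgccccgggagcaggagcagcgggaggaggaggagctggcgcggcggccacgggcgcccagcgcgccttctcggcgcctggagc
ZNF503: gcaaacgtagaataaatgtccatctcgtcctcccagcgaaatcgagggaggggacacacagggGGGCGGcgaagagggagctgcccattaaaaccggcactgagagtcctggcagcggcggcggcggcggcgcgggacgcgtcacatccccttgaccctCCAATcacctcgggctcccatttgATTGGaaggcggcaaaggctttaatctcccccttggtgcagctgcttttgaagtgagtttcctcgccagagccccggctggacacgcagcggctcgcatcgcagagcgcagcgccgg
TNS2-AS1: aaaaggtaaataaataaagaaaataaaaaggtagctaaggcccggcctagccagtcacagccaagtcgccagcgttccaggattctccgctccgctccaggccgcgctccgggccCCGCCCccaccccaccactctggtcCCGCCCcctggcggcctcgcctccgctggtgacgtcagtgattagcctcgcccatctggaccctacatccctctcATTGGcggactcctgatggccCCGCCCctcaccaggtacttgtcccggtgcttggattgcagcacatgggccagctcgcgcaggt
PITPNA-AS1: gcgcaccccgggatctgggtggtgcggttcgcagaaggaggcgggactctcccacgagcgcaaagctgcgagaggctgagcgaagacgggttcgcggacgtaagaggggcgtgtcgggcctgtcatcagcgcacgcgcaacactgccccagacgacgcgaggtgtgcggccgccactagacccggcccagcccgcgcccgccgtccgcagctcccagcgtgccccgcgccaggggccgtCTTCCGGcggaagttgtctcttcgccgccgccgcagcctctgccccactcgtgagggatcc
HDAC2-AS2: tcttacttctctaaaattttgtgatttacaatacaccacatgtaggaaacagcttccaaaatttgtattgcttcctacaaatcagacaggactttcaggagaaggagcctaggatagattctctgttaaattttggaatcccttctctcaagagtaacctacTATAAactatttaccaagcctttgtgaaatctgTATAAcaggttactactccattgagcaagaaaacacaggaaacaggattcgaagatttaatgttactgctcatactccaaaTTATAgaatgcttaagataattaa

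The RefSeq starts of NUP153-AS1 and NUP153 lay 795 bases apart, those of TMEM147-AS1 and TMEM147 403 bases apart, and those of ZNF503-AS2 and ZNF503 236 bases apart. In all 3 pairs the transcripts ran toward each other and no base was shared between both windows. TMEM147-AS1 and TNS2-AS1 each held 3 GC boxes, and PITPNA-AS1 held 1 ETS-type motif. The HDAC2-AS2 window had a GC content of 34.0% with 1 CpG and 3 TATA motifs, against a GC content of 76.7% with 39 CpGs in the ZNF503-AS2 window.

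Over all 586 matched antisense windows (1 per gene, the window nearest to the GENCODE start) the median GC content was 63.3% with a median of 21 CpGs. The 618 partner windows had 65.3% and 25 CpGs, and all 35116 windows of the RefSeq table had 58.7% and 14 CpGs. The GC box was present in 56.8% of antisense windows, in 65.0% of partner windows and in 45.0% of all windows. TATAA was present in 11.4%, 12.3% and 20.4% of these sets, CCAAT in 31.7%, 33.5% and 34.6%, and CCGGAAG in 12.8%, 11.8% and 10.3%. Antisense windows therefore lay nearer to partner windows than to the whole table in GC box and TATA content. TATAA and its reverse complement overlap in TTATAA, and a match describes these letters only.

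By the GENCODE models the exons of 567 members overlapped exons of the partner on the opposite strand. The gene bodies of a further 162 members overlapped the partner without sharing exonic bases. Another 33 were divergent with starts within 1 kb and no overlap, 9 lay further apart, 2 lay on the strand of the gene they are named after (ITPR2-AS1 was one of them), and 10 had no partner. Starts of the member and the partner lay within 1 kb of each other for 224 members in any of these classes. The start was the outer end of the GENCODE gene, so near and far pairs depend on the gene model. For HDAC2 the RefSeq start lay 40160 bases from the GENCODE start, and the RefSeq starts of HDAC2-AS2 and HDAC2 lay 1447 bases apart.

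Most members were low in abundance. The mean normalized count over the 6 samples (counts scaled by TMM factors to the mean library) had a median of 16.4, with quartiles of 4.93 and 73.6 and a highest value of 4173. A mean of at least 20 was reached by 366 members, of at least 100 by 150 and of at least 500 by 16. Per kb of exon the sense partner was the higher of the pair in 627 of 727 pairs (86.2%), and the median level of the partner was 15.1-fold that of the antisense gene. Across these pairs the per-kb levels of both genes had a Spearman correlation of 0.14, given as a description, since both genes of a pair come from the same libraries.

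**Figure D1:**
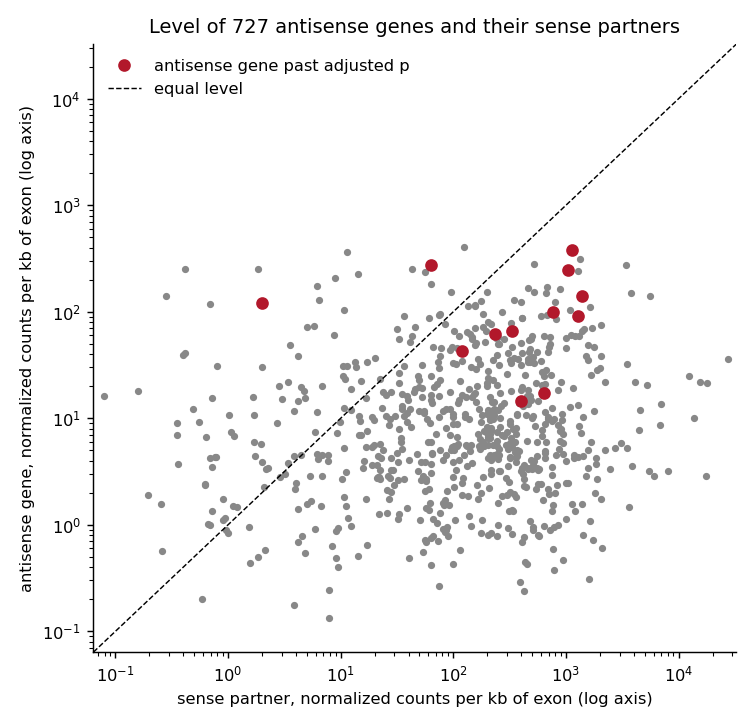
Mean level over the 6 samples in normalized counts per kb of exon on log axes, for 727 antisense genes (y axis) and their sense partners (x axis); each point is a pair, the dashed line marks equal levels and red points are the members past the adjusted p threshold. Of the 727 points, 627 lie below the line, where the sense gene is the higher of the pair.

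The member with the highest count was FGD5-AS1, with normalized counts of 4160, 3924 and 4119 under Olaparib and 4310, 4236 and 4290 under DMSO. Its partner FGD5, an exchange factor for the small GTPase CDC42, had 10 counts or fewer in total. The groups did not overlap for FGD5-AS1, but the log2 fold change was -0.073 ± 0.035 (SE, n = 3 against 3) with an edgeR adjusted p of 0.314. The next highest were OTUD6B-AS1 at a mean of 1498, THAP9-AS1 at 1114, TRHDE-AS1 at 1063 and DLGAP1-AS2 at 1008. THAP9-AS1, named after a gene of transposase origin, was itself the higher of its pair, with 253 normalized counts per kb against 42.6 for THAP9. VPS9D1-AS1 also exceeded its partner, with 405 against 124 per kb.

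The comparison of Olaparib with DMSO asked which genes changed when PARP was inhibited in BRCA1-deficient cells. At an adjusted p under 0.05 in the edgeR quasi-likelihood test (Benjamini-Hochberg over all 21729 genes), 12 antisense genes changed, 1 higher and 11 lower under Olaparib. Among all genes tested, 3.36% passed, 2.15% higher and 1.21% lower, and of the members 1.53% passed. With the added condition of a fold change above 1.2, 7 members were called (1 higher, 6 lower) against 1.21% of all genes. Values are shares of the RNA of whole cultures, in which fewer expressing cells and less RNA per cell cannot be told apart. Among genes with a mean normalized count of at least 20, 12 of 366 members passed (3.28%) against 4.81% of all 14800 such genes. So members did not pass more often than genes in general, whereas 11 of the 12 that did were lower and 467 of the 730 genes past the threshold overall were higher. Other lncRNA genes passed mostly downward too, 29 lower of 35 past the threshold.

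Of the 12, 4 overlapped their partner with starts within 1 kb. NUP153-AS1 (ENSG00000272269, chr6:17706094-17707344, plus strand), a single-exon gene across the start of NUP153, was the only member that rose. Its normalized counts were 350, 328 and 338 under Olaparib and 285, 304 and 254 under DMSO, a log2 fold change of 0.27 ± 0.074 (SE) with an adjusted p of 0.0338. Every Olaparib sample was above every DMSO sample. NUP153, a component of the nuclear basket of the nuclear pore, had 6650, 6487 and 6361 against 6187, 6340 and 6162, a log2 fold change of 0.061 that did not pass the test (adjusted p = 0.361). The groups of NUP153 did not overlap either. Exons of NUP153 on the opposite strand face 649 exonic bases of NUP153-AS1 (51.9%).

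The other 3 of these were lower under Olaparib. PTOV1-AS1 (ENSG00000268006, chr19:49838639-49851676, minus strand) had the largest fall of the 12, from 70.1, 82.4 and 64.5 to 51.6, 46.2 and 48.7 normalized counts (log2 fold change -0.56 ± 0.16, adjusted p = 0.0397). It also had the lowest count of the 12, and 1438 of its exonic bases overlap exons of MED25, a subunit of the Mediator complex whose log2 fold change was 0.013. ZNF503-AS2 (ENSG00000237149, chr10:75401519-75408982, plus strand) fell from 358, 364 and 357 to 285, 328 and 295 (-0.25 ± 0.070, adjusted p = 0.0395). TMEM147-AS1 (ENSG00000236144, chr19:35540738-35546029, minus strand) fell from 491, 459 and 487 to 419, 431 and 394 (-0.21 ± 0.060, adjusted p = 0.0425).

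The groups of these 3 genes did not overlap. Their partners gave log2 fold changes of -0.050 for PTOV1, a Mediator-binding regulator of transcription, -0.077 for ZNF503, a zinc finger repressor, and 0.050 for TMEM147, a protein of the endoplasmic reticulum membrane. None of these 3 passed the test, and the lowest adjusted p among them was 0.395.

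Another 6 of the 12 shared exonic bases with their partner but started further from it. TNS2-AS1 (ENSG00000257337, chr12:53012884-53054450, minus strand) had the smallest p of all members, with normalized counts of 436, 448 and 397 under Olaparib and 571, 530 and 501 under DMSO (log2 fold change -0.32 ± 0.061, adjusted p = 0.00123). All Olaparib samples were below all DMSO samples. Its partner TNS2, a focal adhesion protein that links integrins to actin, had 1750, 1829 and 1711 against 1829, 2067 and 1904, a log2 fold change of -0.13 that missed the threshold (adjusted p = 0.108). TNS2-AS1 also shares 747 exonic bases with EIF4B, a translation initiation factor on the opposite strand, whose log2 fold change was 0.032.

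PITPNA-AS1 (ENSG00000236618, chr17:1516877-1518101, plus strand) fell from 272, 264 and 257 to 182, 197 and 213 normalized counts (-0.42 ± 0.083, adjusted p = 0.00186). It lies at the end of PITPNA distant from its start, 45915 bases from it, and 63.9% of its exonic bases face exons on the opposite strand. The groups were separated by a wide gap, whereas PITPNA, a phosphatidylinositol transfer protein, gave 0.053 with an adjusted p of 0.479.

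C1RL-AS1 (ENSG00000205885, chr12:7108052-7122524, plus strand) fell from 312, 323 and 249 to 227, 235 and 220 (-0.37 ± 0.086, adjusted p = 0.00895). The groups did not overlap, although DMSO replicate 3 lay nearer to the Olaparib samples than to the other DMSO samples. C1RL, a serine protease related to complement C1r, also had lower values under Olaparib, 562, 598 and 507 against 629, 626 and 622, without passing the test (-0.17 ± 0.056, adjusted p = 0.0900).

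HDAC2-AS2 (ENSG00000228624, chr6:113969701-114471705, plus strand) fell from 166, 179 and 167 to 134, 135 and 127 normalized counts (-0.37 ± 0.10, adjusted p = 0.0336). ARRDC1-AS1 (ENSG00000203993, chr9:137615326-137618906, minus strand) fell from 520, 547 and 558 to 422, 496 and 466 (-0.23 ± 0.060, adjusted p = 0.0217). THUMPD3-AS1 (ENSG00000206573, chr3:9349689-9398579, minus strand) fell from 679, 661 and 690 to 598, 590 and 579 (-0.20 ± 0.050, adjusted p = 0.0161). In each of these 3 the lowest DMSO sample was above the highest Olaparib sample. The partners were HDAC2, a histone deacetylase, at -0.075, ARRDC1, an arrestin-domain protein of vesicle budding, at -0.017, and THUMPD3, a tRNA methyltransferase, at 0.032, with adjusted p-values of 0.175, 0.879 and 0.789.

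The remaining 2 of the 12 lay within the body of the partner without sharing exonic bases with any annotated gene. SLC16A4-AS1 (ENSG00000273373, chr1:110370154-110373003, plus strand) fell from 374, 383 and 383 to 338, 278 and 310 normalized counts (-0.30 ± 0.071, adjusted p = 0.0100). Its partner SLC16A4, of the monocarboxylate transporter family, was measured at 3.79 to 8.95 normalized counts per sample, and the member was thus the higher of the pair per kb (121 against 2.01). DLGAP1-AS2 (ENSG00000262001, chr18:3603000-3610103, plus strand) fell from 1049, 1066 and 1084 to 997, 911 and 942 (-0.17 ± 0.047, adjusted p = 0.0396).

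DLGAP1-AS2 and DLGAP1 were the only pair in which both genes passed the test, and they moved in opposite directions. DLGAP1, a scaffold protein of the postsynaptic density, rose from 708, 711 and 723 to 823, 830 and 793 (0.19 ± 0.048, adjusted p = 0.0171). The change of DLGAP1-AS2 minus that of DLGAP1 was -0.36 on the log2 scale (95% interval -0.49 to -0.23, from both standard errors taken as independent). Of the other members named after DLGAP1, DLGAP1-AS1 had a log2 fold change of -0.11 and DLGAP1-AS3, at a mean of 2.18 normalized counts, of -0.18, and neither passed the test. Without Olaparib replicate 2 neither DLGAP1 (adjusted p = 0.0533) nor DLGAP1-AS2 (0.147) passed in edgeR, and the same held without DMSO replicate 1 (0.103 and 0.114), DMSO replicate 2 (0.0731 and 0.107) or DMSO replicate 3 (0.0537 and 0.136) and in DESeq2 (0.0738 and 0.0987). Without Olaparib replicate 3 DLGAP1 passed and DLGAP1-AS2 did not (0.151).

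**Figure D2:**
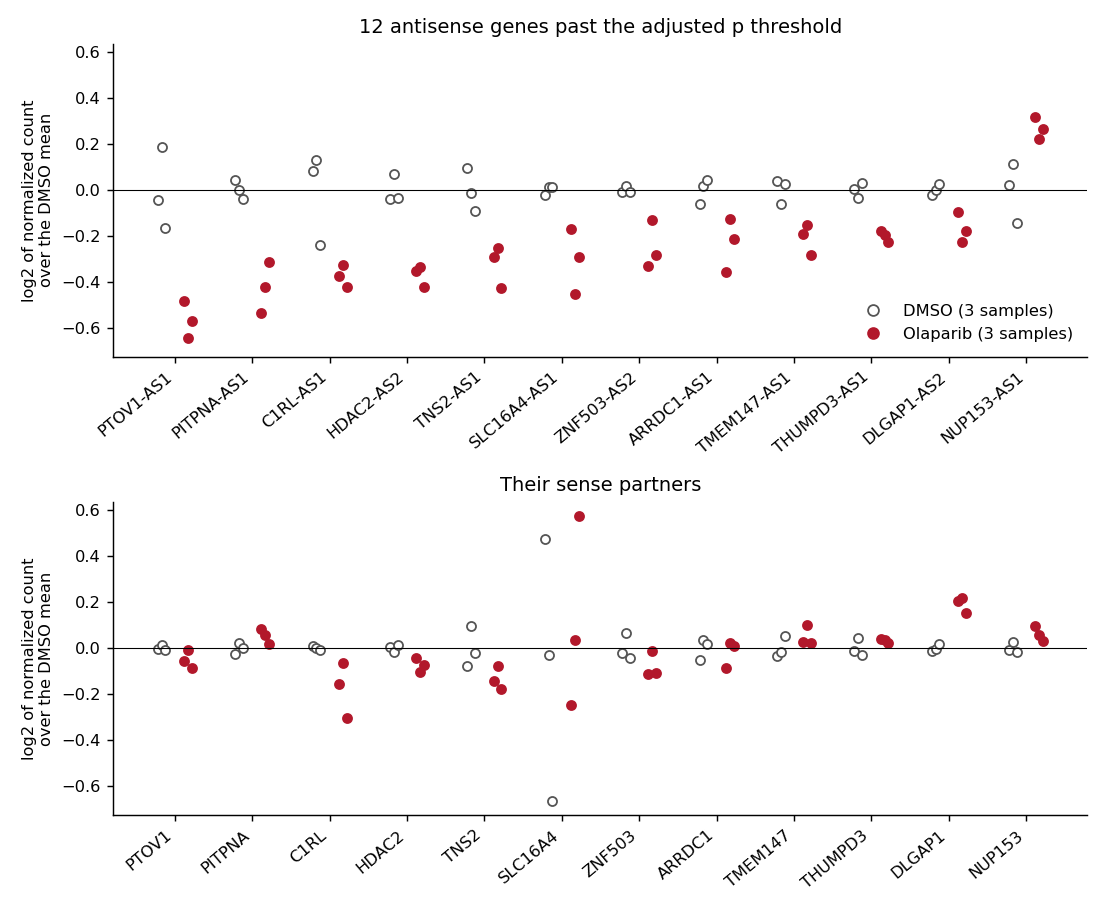
Normalized count of each sample over the DMSO mean of the same gene on a log2 scale, for the 12 antisense genes past the adjusted p threshold (upper panel) and their sense partners (lower panel); open grey points are 3 DMSO samples and red points 3 Olaparib samples. In the upper panel the groups do not overlap for any gene, with NUP153-AS1 above and 11 genes below; in the lower panel DLGAP1 is the only partner past the threshold and SLC16A4, below 9 normalized counts, scatters widely.

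For 10 of the 12 pairs the 95% interval of the difference between the change of the member and that of its partner did not include 0, the exceptions being C1RL and SLC16A4. Over all 727 pairs this held for 68. The 12 members were picked by their own change in these same libraries, so the count of 10 is a description. It is no separate test of a difference between a member and its partner. Leaving out 1 library lowered the count of 12 to 7 without Olaparib replicate 1, 7 without Olaparib replicate 2, 5 without Olaparib replicate 3, 6 without DMSO replicate 1, 5 without DMSO replicate 2 and 6 without DMSO replicate 3. Not all of these were among the 12, of which 6, 7, 4, 5, 4 and 4 passed in these fits, in the same order. TNS2-AS1 and PITPNA-AS1 passed in all 6 of these fits, and with DESeq2 3 members passed, namely these 2 and C1RL-AS1. The call of NUP153-AS1 was lost in 5 of the 6 fits, all but that without DMSO replicate 2, that of PTOV1-AS1 in all but that without DMSO replicate 3, and that of HDAC2-AS2 in all but that without DMSO replicate 1. SLC16A4-AS1 lost its call without Olaparib replicate 2, DMSO replicate 2 or DMSO replicate 3, and C1RL-AS1 without DMSO replicate 1 or 2. Among the same 6 fits ZNF503-AS2 and TMEM147-AS1 passed the adjusted p only without Olaparib replicate 2. ARRDC1-AS1 passed only without Olaparib replicate 2 or DMSO replicate 1. THUMPD3-AS1 did not pass without Olaparib replicate 3, DMSO replicate 1 or DMSO replicate 3. With limma voom ZNF503-AS2, TMEM147-AS1 and PTOV1-AS1 did not pass. With upper quartile scaling in edgeR the call of NUP153-AS1 was lost through the fold change alone (log2 fold change 0.261, adjusted p = 0.0468).

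Members were on balance slightly lower under Olaparib. The median log2 fold change over the 783 members was -0.061, against -0.0042 over all genes tested, and 455 members were lower and 328 higher. These sets differ in level, with a median normalized count of 16.4 for members and 199 for all genes. For 109 members the groups did not overlap, 27 higher and 82 lower (13.9% of members); among all genes 19.3% did not overlap, 10.0% higher and 9.29% lower. Of the 366 members with a mean of at least 20, 243 were lower (66.4%), with a median of -0.062. Of all 14800 genes with such a mean 50.1% were lower, with a median of -8.91e-05. At an unadjusted p under 0.05 there were 73 members (9.32%), 12 higher and 61 lower, against 14.8% of all genes, 7.83% higher and 6.97% lower.

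The same lean was seen in lncRNA genes outside the set. The 2963 other lncRNA genes had a median of -0.074, and of the 891 with a mean of at least 20 the median was -0.058 with 63.7% lower. Protein-coding genes with a mean of at least 20 had a median of 0.0048, with 47.5% lower. Taken per sample over the 366 members, the median log2 value against the DMSO mean was -0.082, -0.065 and -0.049 in the Olaparib samples and 0.010, -0.017 and 0.012 in the DMSO samples. The 3 Olaparib samples thus lay below the 3 DMSO samples for antisense genes, and the same order was found for other lncRNA genes (-0.070, -0.050 and -0.050 against 0.0061, -0.0077 and 0.0086). For protein-coding genes, the Olaparib samples ranged from 0.0028 to 0.0093 and the DMSO samples from -0.0062 to 0.0071. The difference between antisense and other lncRNA genes was not tested, and genes are not replicates.

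**Figure D3:**
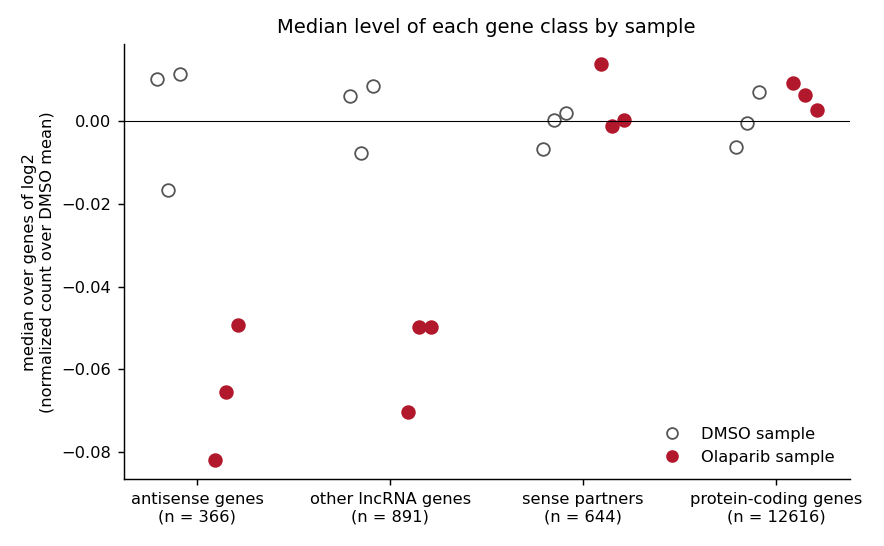
Median over genes of the log2 normalized count against the DMSO mean of each gene, by sample, for 4 gene classes with a mean of at least 20 normalized counts; open points are DMSO samples and red points Olaparib samples. Antisense genes and other lncRNA genes lie between -0.082 and -0.049 in the Olaparib samples, while sense partners and protein-coding genes stay between -0.0066 and 0.014 in all 6.

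The lean was present at each level of abundance above 20 counts. The median log2 fold change was -0.070 for 124 members with a mean of 20 to 50 normalized counts, -0.047 for 92 with 50 to 100, -0.048 for 83 with 100 to 200 and -0.029 for 51 with 200 to 500. All genes tested had medians of -0.037, -0.031, -0.022 and -0.010 at these levels, and of 0.0063 at 500 or more. For the 16 members with a mean of at least 500 the median was -0.11 and 15 of 16 were lower, TRHDE-AS1 being the exception at 0.061. Among these 16, ARRDC1-AS1, THUMPD3-AS1 and DLGAP1-AS2 passed the test. OTUD6B-AS1 gave -0.12, with normalized counts of 1465, 1353 and 1486 against 1581, 1511 and 1590 and an adjusted p of 0.152. NNT-AS1, named after the mitochondrial transhydrogenase gene, gave -0.12 with an adjusted p of 0.260. Below a mean of 20 the 417 members had a median of -0.021, against -0.078 over all genes below that mean. None of the 417 passed the test in edgeR. An unadjusted p under 0.05 was found for 22 of them (5.28%), against 5.46% of all genes below that mean.

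**Figure D4:**
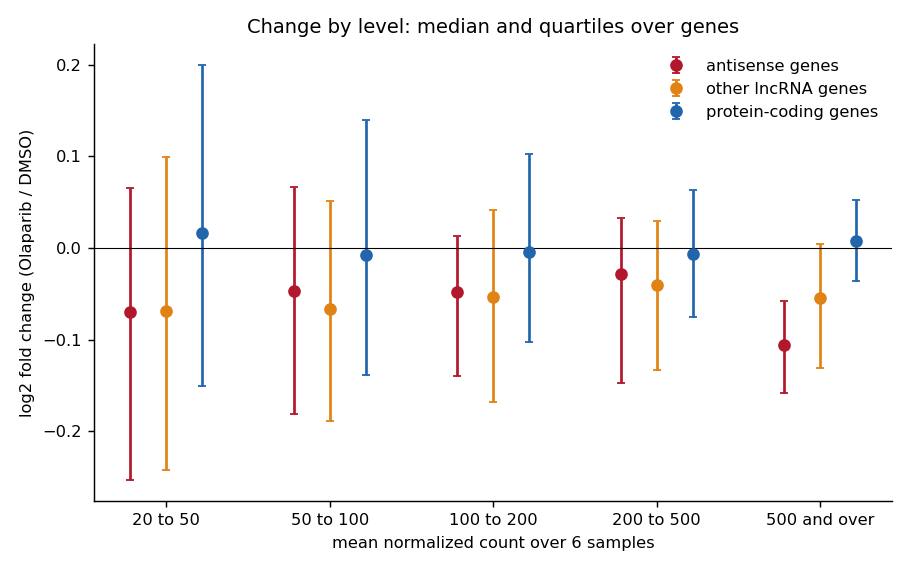
Median log2 fold change (Olaparib over DMSO) with bars from the lower to the upper quartile over genes, by mean normalized count, for antisense genes, other lncRNA genes and protein-coding genes. Antisense medians run from -0.11 to -0.029 and are below 0 in all 5 bins, and protein-coding medians lie between -0.0075 and 0.016.

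By arrangement, members with a mean of at least 20 whose exons overlap the partner had a median of -0.067 (276 genes), those with overlapping bodies -0.038 (61 genes) and divergent members -0.070 (18 genes). Members starting within 1 kb of the partner start had a median of -0.028 (118 genes, 72 lower), and those starting further away had -0.067 (243 genes, 167 lower). These medians are descriptions of groups of unequal size, and no difference between them was tested.

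Sense partners showed no such lean. Their median log2 fold change was 0.0033, and 49 of 712 passed the test (6.88%, against 3.36% of all genes), 31 higher and 18 lower. At a mean of at least 20, 49 of 644 passed (7.61%, against 4.81%). With the fold change condition, 10 partners were called (1.40%, against 1.21% of all genes), 9 higher and 1 lower. The largest rise was that of ADAMTS9, a secreted protease that cleaves proteoglycans, from 641, 663 and 587 to 989, 942 and 928 normalized counts (log2 fold change 0.60 ± 0.051, adjusted p = 1.93e-09). INHBA, which encodes the subunit of activin A, rose from 374, 353 and 353 to 557, 508 and 525 (0.56 ± 0.060, adjusted p = 1.24e-07). For both, every Olaparib sample was above every DMSO sample.

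Of the other called partners, IL6, an inflammatory cytokine, rose from 76.3, 88.3 and 88.2 to 135, 108 and 111 (0.48 ± 0.13, adjusted p = 0.0268). GREM1, a secreted antagonist of bone morphogenetic proteins, rose by 0.28 ± 0.042 and ITPR2, a calcium channel of the endoplasmic reticulum, by 0.43 ± 0.063 on the log2 scale. The IL6 call was lost in edgeR without Olaparib replicate 1 (adjusted p = 0.144), without DMSO replicate 1 (0.109), 2 (0.0660) or 3 (0.0656), and in DESeq2 (0.107).

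The transcription factors ELF3 (0.30) and BHLHE40 (0.26), the retinoic acid enzyme ALDH1A3 (0.29) and SDCBP2 (0.29), a PDZ-domain protein, also rose on the log2 scale. CPNE8, of the copine family of calcium-dependent membrane-binding proteins, fell from 471, 482 and 485 to 423, 368 and 401 (-0.27 ± 0.061, adjusted p = 0.00701). In edgeR the ELF3 call was lost without DMSO replicate 2 (adjusted p = 0.0635) and the CPNE8 call without Olaparib replicate 2 (0.0673) or DMSO replicate 3 (0.0502). Another 3 of these calls rested on a fold change close to 1.2 and were lost through the fold change alone, with the adjusted p still under 0.05. BHLHE40 fell below it without Olaparib replicate 1 (log2 fold change 0.22) or DMSO replicate 3 (0.24) and, at 0.25 to 0.26, with limma voom, upper quartile scaling, filterByExpr, more than 60 counts and the replicate block. SDCBP2 fell below it without Olaparib replicate 2 or DMSO replicate 2 (0.26 each), and ALDH1A3 without Olaparib replicate 1 (0.26). ADAMTS9, INHBA, GREM1 and ITPR2 kept their calls in all 14 alternative fits.

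None of the antisense members of these 10 partners passed the test in edgeR. INHBA-AS1 was the only one of them with groups that did not overlap, at 6.07, 3.08 and 5.96 normalized counts under Olaparib and 1.05, 1.96 and 0.948 under DMSO, which is a few reads per library (adjusted p = 0.180, unadjusted p = 0.0147). BHLHE40-AS1 had 27.3, 22.6 and 26.8 against 28.2, 14.7 and 18.0 (log2 fold change 0.34 ± 0.26) and GREM1-AS1 had 19.2, 22.6 and 18.9 against 17.8, 8.83 and 20.9 (0.35 ± 0.29). In both the groups overlapped.

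ALDH1A3-AS1 had 89.1, 75.9 and 83.5 against 89.9, 86.3 and 84.4, so that its change minus that of ALDH1A3 was -0.36 (95% interval -0.63 to -0.078). SDCBP2-AS1, at 107, 91.3 and 95.4 against 73.2, 112 and 102, also overlapped between groups. ADAMTS9-AS2, CPNE8-AS1, ITPR2-AS1, ELF3-AS1 and IL6-AS1 had means between 2.97 and 17.2 normalized counts, with standard errors of 0.31 to 0.69 on the log2 scale, and none of these 5 passed the test.

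In all, 51 members were named after a partner that passed the test, and 26 of them had a mean of at least 20. Of these 26, 17 had a log2 fold change of the same sign as the partner. Among the 314 pairs in which both genes had a mean of at least 20, 171 had changes of the same sign, with a Spearman correlation of 0.20 and a Pearson correlation of 0.15 between the log2 fold changes. The correlation is a description over pairs measured in the same 6 libraries, in some of which the genes also share bases on opposite strands. For the 17 divergent pairs in this set the Spearman correlation was 0.40, with 10 of the same sign, and for the 240 pairs with overlapping exons it was 0.18, with 128 of the same sign.

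**Figure D5:**
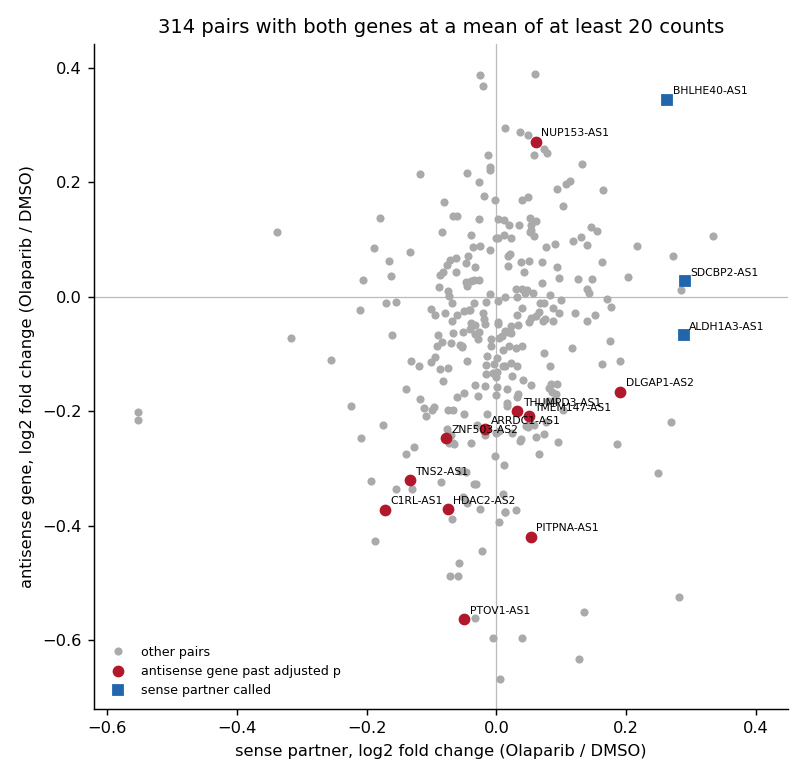
Log2 fold change (Olaparib over DMSO) of the antisense gene (y axis) against that of its sense partner (x axis) for the 314 pairs in which both had a mean of at least 20 normalized counts; red points are antisense genes past the adjusted p threshold, blue squares are pairs whose partner was called, and grey points are the other pairs. Points spread over all 4 quadrants, 171 of them with changes of the same sign, and DLGAP1-AS2 lies to the right and below 0.

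Members were also grouped by lists of partners, drawn up by what the partner is known to do. The lists do not hold every partner of a kind, and the counts below cover listed partners only. Members of DNA replication, repair and cell cycle genes numbered 16, of which 12 were lower and 4 higher with a median of -0.10, and none passed the test. TMPO-AS1, named after a nuclear lamina protein gene, had 196, 171 and 190 against 196, 227 and 220 normalized counts (log2 fold change -0.20 ± 0.091, adjusted p = 0.262), and its groups overlapped. MCM3AP-AS1 gave -0.14 ± 0.11. DNAJC9-AS1 (ENSG00000227540), the higher of 2 members with that symbol, gave -0.048 ± 0.11. Of the 15 partners in this list 2 passed the test (13.3%, against 3.36% of all genes and 6.88% of all sense partners), both lower. They were CCND2, a D-type cyclin (-0.15), and PAXIP1, a protein of the DNA damage response (-0.19). Both were named here after their values were seen, as are the partners given for the next groups. The lists were chosen with earlier results of these data known, so this share and those of the next groups are descriptions. The 3.36% over all genes includes 6929 genes with a mean below 20, of which 0.26% passed.

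Members of interferon, antigen presentation and immune genes numbered 16, with 8 higher and 8 lower, a median of -0.057 and none past the test. The highest of them were CD27-AS1 (504, 536 and 533 against 545, 610 and 583; log2 fold change -0.14 ± 0.055, adjusted p = 0.173), ITGB2-AS1 (-0.16 ± 0.082) and CARD8-AS1 (0.060 ± 0.092). CD27-AS1 was the only one of these 3 whose groups did not overlap, and CD27, a tumour necrosis factor receptor of lymphocytes, had 10 counts or fewer. Of the 12 partners 1 passed the test (8.33%, against 3.36% of all genes and 6.88% of all sense partners), which was IL6.

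Members in the list of transcription factor genes numbered 38, with 17 higher and 21 lower, a median of -0.029 and none past the test. ZNF503 was not in this list, and ZNF503-AS2 passed. DLX6-AS1 gave 0.072 ± 0.057, ZNF561-AS1 gave 0.075 ± 0.090 and ZEB1-AS1 gave -0.16 ± 0.083, none with groups fully apart. ZEB1-AS1, named after a repressor of epithelial genes, was higher than ZEB1 per kb, at 59.8 against 8.72 normalized counts. Of the 36 partners 7 passed the test (19.4%, against 3.36% of all genes and 6.88% of all sense partners). Of these 7, 4 were higher and 3 lower, among them SOX9 (0.16) and PAX8 (0.10) on the higher side and NR2F2 (-0.19) and ZNF337 (-0.21) on the lower side.

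Members in the list of receptor, adhesion and cytoskeleton genes numbered 22, with 10 higher and 12 lower, a median of -0.056 and none past the test. TNS2 was not in this list, and TNS2-AS1 passed. After FGD5-AS1 the highest were ITGB8-AS1 (0.0013 ± 0.10) and VIM-AS1 (0.10 ± 0.11), named after an integrin subunit and the intermediate filament vimentin. Of their 21 partners 4 passed the test (19.0%, against 3.36% of all genes and 6.88% of all sense partners). ADAMTS9 and VIM (0.13) were higher, and LAMA5, a laminin chain (-0.14), and ARHGEF2, an exchange factor for RhoA (-0.13), were lower.

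Members of RNA processing, ribosome and translation genes numbered 10, with 6 higher and 4 lower and a median of 0.014. THUMPD3-AS1 was the 1 member of any of these 5 lists that passed the test, and it fell. MRPL20-AS1, of a mitochondrial ribosomal protein gene, gave -0.044 ± 0.050. NOP14-AS1, of a gene for small ribosomal subunit assembly, had 455, 525 and 525 against 570, 562 and 563 (-0.17 ± 0.058, adjusted p = 0.108). None of the 10 partners passed the test in edgeR.

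The largest changes with groups that did not overlap, among members with a mean of at least 20, lay mostly in genes of few counts. LMO7-AS1 had 13.2, 14.4 and 20.9 against 31.4, 22.6 and 23.7 normalized counts (-0.67 ± 0.27, adjusted p = 0.195), and NHSL1-AS1 had 22.3, 22.6 and 30.8 against 36.6, 42.2 and 38.9 (-0.63 ± 0.21, adjusted p = 0.100). SCOC-AS1 gave -0.60 ± 0.25 and DGUOK-AS1 gave -0.56 ± 0.24. Apart from PTOV1-AS1, none of these largest falls passed the test.

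On the other side CPB2-AS1 had 76.9, 72.8 and 85.5 against 47.1, 52.0 and 63.5 (0.53 ± 0.15) and missed the threshold with an adjusted p of 0.0507. It passed with no filter on low counts (0.0256), with the replicate block (0.0335) and without DMSO replicate 3 (0.0415), and its adjusted p reached 0.219 without Olaparib replicate 3. CPB2, a carboxypeptidase that slows the breakdown of clots, was lower than its antisense gene per kb (0.719 against 3.46 normalized counts). MIDEAS-AS1 (0.37 ± 0.23), CNIH3-AS2 (0.30 ± 0.14) and JDP2-AS1 (0.25 ± 0.23) did not pass the test.

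Reads of a member and of a gene on the other strand can be told apart only if counting used strand. The study's methods name a stranded library kit, and the strand setting of the counting step was not given in the sources used here. Exons of 630 members overlapped exons of some other gene. Of the 45 table entries (before any filter on counts, with OIP5-AS1 left out) with at least 90% of their exonic bases facing exons on the opposite strand, 12 passed the filter (26.7%), as did 159 of the 607 without any such overlap (26.2%) and 544 of the 987 with an overlap of up to 50% (55.1%). The median log2 fold change was -0.050 over the 159 members without such overlap and -0.049 over the 544. It was -0.13 over the 68 with an overlap of over 50% to under 90% (25 higher, 43 lower) and -0.22 over the 12 with at least 90% (4 higher, 8 lower), of which 19 and 3 had a mean of at least 20. No difference between these groups was tested. Of the 12 members past the test, SLC16A4-AS1 and DLGAP1-AS2 were without exon overlap with any annotated gene. The limit on strand holds for them too, since both lie within the body of the partner on the other strand.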

How the data were processed

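RNA from UWB1.289 cells was read as 1 table of gene counts for 6 samples (3 Olaparib, 3 DMSO). Per the labels and the study's methods, the authors made poly(A) libraries, trimmed reads with Trimmomatic, aligned them to GRCh38 (hg38; written GRCh38.96 in the methods) with STAR and deposited raw counts per gene from featureCounts; the gene models used at the counting step are not named in the sources used here. Members and lists were chosen with earlier results of these data known.

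Here, genes with more than 10 counts in total were tested with edgeR 4.0.16 (TMM scaling, quasi-likelihood test, Benjamini-Hochberg adjustment; R 4.3.3) on the counts as deposited, with 3 against 3 samples and no covariates; called genes had an adjusted p under 0.05 and a fold change above 1.2. Of 63677 identifiers, 52181 were in GENCODE release 44, from which symbols, strands and exons were taken. Normalized counts were scaled to the mean effective library. The script was tested on simulated data. Genes were named by rule: members past the adjusted p with their partners, the 10 called partners with their members, the 10 highest members, the 3 highest per list, and the 5 largest falls and rises with groups apart at a mean of at least 20. Alternatives were DESeq2 1.42.0, limma 3.58.1 (voom), other scalings and filters, the replicate block, each sample left out, a log2 fold change above 1.5 and members without exon overlap; the restriction to a mean of at least 20 was added after seeing the data. Correlations of deviations between samples of the same replicate number were -0.021, 0.16 and -0.093, so the numbers were not taken to pair the samples. P-values measure the spread between these samples of 1 line. OIP5-AS1 was left out by the rule.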

Additional observations from a re-analysis of the deposited data

How the results depend on the processing

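The counts of antisense genes moved with the setting. In place of 12 past the adjusted p and 7 called, DESeq2 gave 3 and 3, and leaving out 1 sample gave 5 to 7 and 4 to 6. Restricting the members to the 153 whose exons overlap no other gene gave 2 and 1, of 153 in place of 783. At an absolute log2 fold change above 1.5, 0 members and 0 partners were called in edgeR, with 73 members (9.32%) at an unadjusted p under 0.05 against 14.8% of all genes. Partners past the adjusted p numbered 24 to 51 with 1 sample left out, in place of 49. In the fit with the replicate block, 19 members and 86 partners passed, and all 12 members were among the 19. Deviations of samples with the same replicate number correlated at -0.021, 0.16 and -0.093. Between samples of different number the correlations ran from -0.20 to 0.22. All 12 were also past the threshold with DESeq2 size factors, upper quartile scaling, no filter, filterByExpr and more than 60 counts, and 9 of them with limma voom. The median over members stayed between -0.071 and -0.046 under every alternative run; the median over partners was -0.0056 with upper quartile scaling, in place of 0.0033.

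The sign of 10 named genes with small changes depended on the setting. With 1 sample left out, log2 fold changes ranged from -0.085 to 0.47 for SLC16A4, -0.041 to 0.019 for ARRDC1, -0.79 to 0.52 for CPNE8-AS1, -0.21 to 0.43 for IL6-AS1, -0.31 to 0.10 for ITPR2-AS1, -0.12 to 0.15 for SDCBP2-AS1, -0.10 to 0.061 for ZNF667-AS1, -0.11 to 0.030 for DNAJC9-AS1, -0.074 to 0.070 for ITGB8-AS1 and -0.0017 to 0.20 for VIM-AS1. With limma voom CPNE8-AS1 gave -0.18 and ITGB8-AS1 -0.0017, and ITGB8-AS1 gave -0.0075 with upper quartile scaling, -0.00096 with filterByExpr and -0.00086 with more than 60 counts. The cause was not tested. Counts of a few reads per library limit what can be seen for the 417 members with a mean below 20.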
